A study of Mus musculus with 8 samples.

Results

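The complement genes described here are C1qa, C1qb, C1qc, C3, C4b, C3ar1, C5ar1 and Serping1, measured in the olfactory bulb of mice. Members were the noncontrol probes whose gene name on the array is one of these 8 symbols, which gave 10 probes on 28 of the 59305 noncontrol spots. Signal was well above background on all 8 arrays for 9 of the 10 probes, and these 9 probes cover 7 of the 8 genes. The remaining probe, that of C5ar1, was not well above background on any array.

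Male C57BL/6J mice lived from before birth in a standard cage or in an enrichment environment, a larger cage with a running wheel and toys. After weaning at postnatal day 27 they breathed clean air (group C-C of the standard cages, EE-C of the enriched ones) or diesel exhaust (C-DE and EE-DE). The exhaust concentration was 90 µg/m3, given 8 h daily on each of 28 days from postnatal day 28 to 55, with tissue taken at 56 days of age. The labels name no allele or agent besides these. RNA of several males of a group, 1 from each cage, was combined in a single pool, and each pool was divided over 2 one-colour Agilent arrays, so a group is 1 sample and its 2 arrays carry no variation between mice. Tissue of the bulb as a whole was used, so fewer cells of a type and less RNA per cell cannot be told apart.

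Complement is a set of blood and tissue proteins that mark surfaces for removal. In the classical route, C1q, assembled from the chains encoded by C1qa, C1qb and C1qc, binds a target, the attached proteases cleave C4 and C2, and the resulting enzyme cleaves C3, whose fragments coat the target and signal through receptors such as C3ar1, and a fragment of C5, cleaved later, signals through C5ar1. Serping1, the C1 inhibitor, blocks the proteases at the start. In the brain C1q is made chiefly by microglia, the resident macrophages, C4 and C3 also by astrocytes, and the pathway is known for tagging synapses that microglia then remove.

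Each array probe is a sequence of 60 bases that hybridizes to one stretch of a transcript, and the level of a gene is read through that stretch alone. The sequences of 5 of the member probes are shown, those of C1qa, C1qb, both C3 probes and the Serping1 probe A_51_P376238. The probes of C3, and those of Serping1, read different stretches of the same transcript. The sequences are given 5′ to 3′ in lower case as in the array files, with no base marked.

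C1qa (A_51_P181451): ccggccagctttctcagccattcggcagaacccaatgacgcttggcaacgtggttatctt
C1qb (A_51_P351860): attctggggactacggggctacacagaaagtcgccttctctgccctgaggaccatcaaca
C3 (A_51_P110301): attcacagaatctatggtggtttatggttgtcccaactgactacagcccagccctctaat
C3 (A_55_P2038525): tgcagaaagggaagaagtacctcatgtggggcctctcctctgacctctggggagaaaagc
Serping1 (A_51_P376238): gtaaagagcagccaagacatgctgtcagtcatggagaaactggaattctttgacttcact

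On the mm9 build, to which the coordinates in the array files belong, all 10 probes lie on the minus strand. The 3 C1q probes are neighbours, with C1qb at chr4:136436578-136436637, C1qc at chr4:136445766-136445825 and C1qa at chr4:136452409-136452468. The C1qb and C1qc probes are 9128 bases apart, and the C1qc and C1qa probes 6583. The C3 probes lie 202 bases apart at chr17:57343416-57343475 and chr17:57343678-57343737. The second of them, A_55_P2038525, is also listed for the accession XM_003086792, which matched no gene in the RefSeq table used here, so its signal cannot be assigned to C3 alone. The C4b probe lies on the same chromosome at chr17:34865328-34865387. Besides the C4b transcript it is listed for a transcript that RefSeq pairs with C4a, a near-identical gene, so the signal given for C4b cannot be separated from that of C4a. Of the Serping1 probes, A_55_P1992889 lies at chr2:84605663-84605722, and A_51_P376238 spans 1507 bases of genome (chr2:84605968-84607474) for its 60 bases, so it crosses at least 1 exon junction. C3ar1 was read at chr6:122798222-122798281 and C5ar1 at chr7:16832243-16832302. Exon and untranslated region were not assigned, since no annotation of mm9 was used here.

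Levels below are the log2 of the processed signal of a probe minus the 75th percentile over noncontrol spots of the same array, so that 0 is the 75th percentile of that array. Levels of different probes are not compared, because probes differ in how well they bind. Changes between pools are differences of pool means on the log2 scale, each pool mean being taken over its 2 arrays, and the range in parentheses runs over the 4 ways of setting single arrays of both pools against each other. Diesel exhaust was compared with clean air in standard housing (C-DE/C-C) and in enriched housing (EE-DE/EE-C). Enriched was compared with standard housing in clean air (EE-C/C-C) and in exhaust (EE-DE/C-DE), and EE-DE/C-C gave the combined change. With 1 pool in a group, these comparisons have no test of the condition, and a probe is counted as changed at 1.5-fold (0.585 on the log2 scale), the threshold used in the study. Fewer noncontrol spots rose well above background on the first EE-DE array (56.7%) than on the other 7 (68.0% to 70.6%), and no noncontrol spot was saturated on any array. The arrays of the standard cages and those of the enriched cages occupied separate rows of the slide, so position on the slide and housing cannot be told apart.

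None of the 9 probes changed 1.5-fold in any of the 5 comparisons of pools. The widest of their changes was 0.21 for the exposure in standard housing and 0.22 in enriched housing, 0.28 for housing in clean air and 0.19 in exhaust, and 0.23 for the combined change. Over all 21709 probes measured, the share past 1.5-fold in those comparisons was 0.576%, 0.944%, 0.825%, 0.636% and 0.815%, in the same order, and 0 of 9 is near that background. The median change of the 9 probes, again in that order, was 0.02, 0.03, 0.07, 0.09 and 0.13, against medians between −0.0074 and 0.0065 over all probes. The exposure comparisons share no pool with each other, and neither do the housing comparisons. Each of the 5 comparisons shares a pool with others of them.

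**Figure D1:**
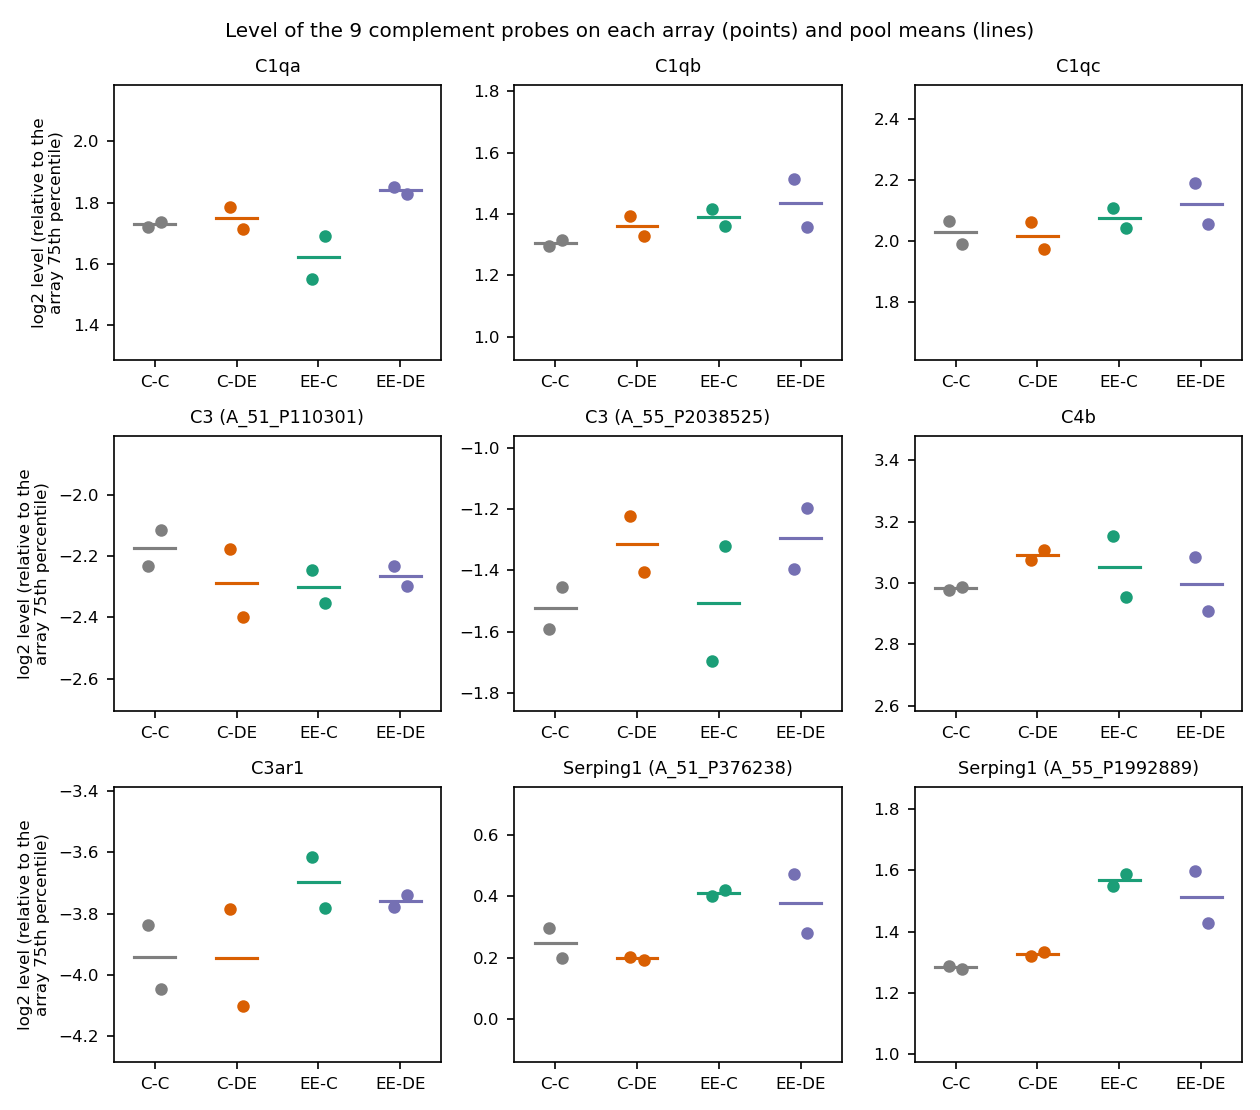
Log2 level of each of the 9 complement probes (vertical axis, relative to the 75th percentile of the array, each panel spanning the same width of 0.9 around the probe's mean) on the 2 arrays of each pool (points) with the pool mean (line). In both Serping1 panels the enriched pools lie above the standard ones by pool mean, while the C4b and C1qc means stay within 0.11 of each other.

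The C1q genes, which encode the recognition molecule of the classical route, differed little between pools. C1qa read 1.72 and 1.74 on the C-C arrays, 1.79 and 1.72 on the C-DE arrays, 1.55 and 1.69 on the EE-C arrays and 1.85 and 1.83 on the EE-DE arrays. The EE-C arrays were the lowest and the EE-DE arrays the highest, and neither overlapped any other pool. C1qa was therefore 0.22 higher in EE-DE than in EE-C (range over pairings 0.14 to 0.30), or 16.4%, whereas in standard housing the exposure change was 0.02 (−0.02 to 0.06). The difference between those changes was 0.20, with a range of 0.07 to 0.32 over all combinations of arrays, and was not tested. The central 95% of all probes lay between −0.31 and 0.41 in this difference, and the other 8 member probes, whose ranges all held 0, had −0.16 (C4b) to 0.15 (the C3 probe A_51_P110301). Corrected for the local shift of neighbouring spots, the change in EE-DE/EE-C was 0.16, and without the first EE-C array it was 0.15.

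C1qb read 1.30 and 1.31 on the C-C arrays, 1.39 and 1.33 on C-DE, 1.42 and 1.36 on EE-C and 1.51 and 1.36 on EE-DE. The range of the pool means, 0.13, was smaller than the gap of 0.16 between the EE-DE duplicates. The C-C pool was the lowest and overlapped no other, while C-DE, EE-C and EE-DE overlapped as neighbours. Its exposure change was 0.06 (0.01 to 0.10) in standard housing and 0.05 (−0.06 to 0.15) with enrichment, and both turned negative with normexp background correction (−0.0087 and −0.04).

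C1qc was printed on 10 spots, of which 9 were used. It read 2.07 and 1.99 on the C-C arrays, 2.06 and 1.98 on C-DE, 2.11 and 2.04 on EE-C and 2.19 and 2.05 on EE-DE. Every pool overlapped its neighbour in the order of means, and the range of the pool means, 0.10, was smaller than the gap of 0.13 between the EE-DE duplicates. The exposure change was −0.01 (−0.09 to 0.07) in standard housing and 0.05 (−0.05 to 0.14) with enrichment.

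The repeated spots give the precision of a single spot on an array. The SD over the 9 C1qc spots was 0.03 to 0.07 across arrays, and over the 7 spots used for the C3 probe A_51_P110301 it was 0.05 to 0.12. One C1qc spot was left out because it carried an outlier flag on the first EE-C array, where it read 1.23 against a median of 2.12 for the other 9. Of the 10 C3 spots, 3 were left out, the farthest being at −1.66 on the first C-DE array and −2.73 on the first EE-C array against medians of −2.13 and −2.27. All other probes of these genes were printed once, so a fault confined to that spot has no repeated spot to show it, apart from an outlier flag.

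**Figure D2:**
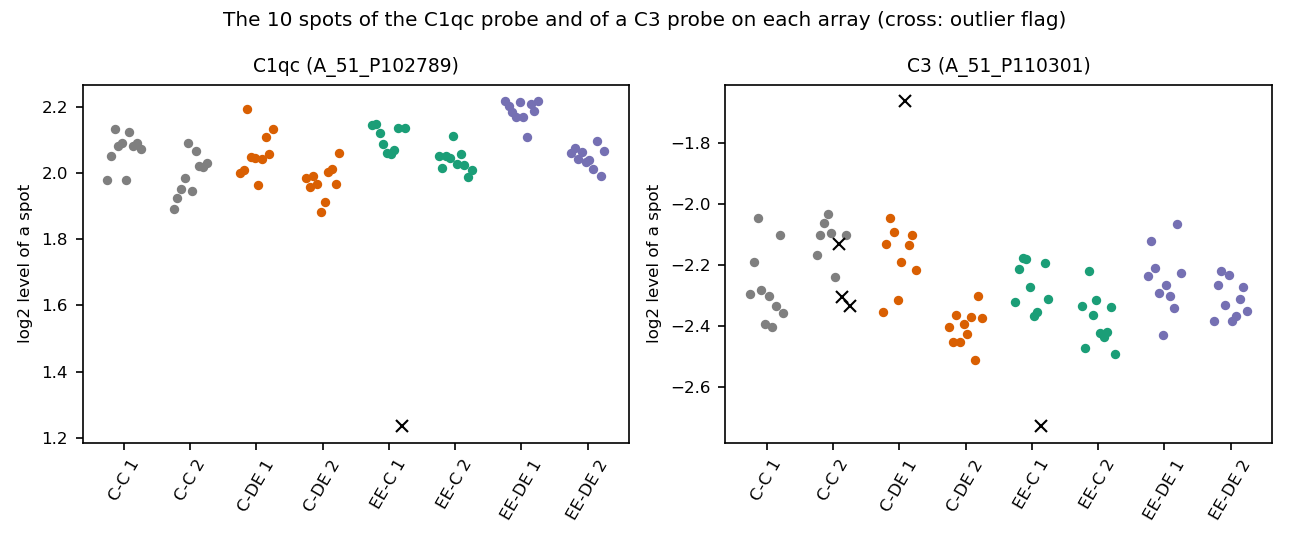
Log2 level (vertical axis, relative to the array's 75th percentile) of each of the 10 spots of the C1qc probe and of the C3 probe A_51_P110301 on each of the 8 arrays, with spots that carried an outlier flag on that array drawn as crosses. The flagged C1qc spot on the first EE-C array lies at 1.23, while the other spots of that array lie near 2.12.

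Averaged over the 3 C1q genes, the level was 1.69 and 1.68 on the C-C arrays, 1.75 and 1.67 on C-DE, 1.69 and 1.70 on EE-C and 1.85 and 1.75 on EE-DE. With exposure the mean changed by 0.02 (−0.02 to 0.07) in standard housing and by 0.10 (0.05 to 0.16) in enriched housing. That second value came mainly from C1qa, since C1qb and C1qc changed by 0.05 each. By the root mean square difference of values centred on their mean over the 8 arrays, the probes outside the group closest to the C1q mean were those of Dyrk1b (0.016), Ptges3 (0.016), Mbd2 (0.019), Man1b1 (0.020) and Ctsd (0.020), against an SD of 0.055 of the C1q mean itself over the arrays. The closeness is a description only.

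C4b encodes the protein cleaved after C1q binds. Its probe read 2.98 and 2.99 on the C-C arrays, 3.07 and 3.11 on C-DE, 3.15 and 2.95 on EE-C and 3.09 and 2.91 on EE-DE. The duplicates of the enriched pools lay 0.20 and 0.18 apart, which is more than the range of the pool means, 0.11. In C-DE/C-C the arrays did not overlap and the change was 0.11 (0.09 to 0.13), and it was 0.04 with the local correction and 0.16 with normexp background correction. In EE-DE/EE-C it was −0.06 (−0.24 to 0.13).

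C3, on which all routes of activation converge, gave different values through its 2 probes. A_51_P110301 read −2.23 and −2.12 on the C-C arrays, −2.18 and −2.40 on C-DE, −2.25 and −2.35 on EE-C and −2.23 and −2.30 on EE-DE. A_55_P2038525 read −1.59 and −1.45 on the C-C arrays, −1.22 and −1.41 on C-DE, −1.70 and −1.32 on EE-C and −1.39 and −1.20 on EE-DE. For the first probe the pool means spanned 0.13, less than the gap of 0.22 between the C-DE duplicates, and for the second they spanned 0.23, less than the gap of 0.38 between the EE-C duplicates.

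The direction in C-DE/C-C depended on the C3 probe, at −0.11 (−0.28 to 0.05) for A_51_P110301 and 0.21 (0.05 to 0.37) for A_55_P2038525. With the series table the first of these was −0.04. In EE-DE/EE-C the probes gave 0.03 (−0.05 to 0.12) and 0.21 (−0.08 to 0.50). Averaged into 1 value, the C3 means of the pools ranged over 0.12. The first probe rested on 7 spots and the second on 1.

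C3ar1, the receptor for the C3a fragment, had a dim probe of 38.5 to 53.6 intensity units. It read −3.84 and −4.05 on the C-C arrays, −3.79 and −4.10 on C-DE, −3.61 and −3.78 on EE-C and −3.78 and −3.74 on EE-DE. Both arrays of each enriched pool lay above those of the standard pools, by at least 0.0057, and the C-DE duplicates were 0.32 apart. The change was 0.24 (0.06 to 0.43) in EE-C/C-C and 0.19 (0.01 to 0.36) in EE-DE/C-DE, against −0.00 (−0.27 to 0.26) and −0.06 (−0.16 to 0.04) for the exposure in standard and enriched housing. With normexp background correction, which raises dim signals by an offset, the change was 0.10 in EE-C/C-C and 0.11 in EE-DE/C-DE. With an array of the comparison left out, it ran from 0.14 to 0.35 in EE-C/C-C and from 0.03 to 0.34 in EE-DE/C-DE.

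With the probes of a gene averaged, C3ar1 had the widest range of pool means among the 7 genes, 0.25. The range was 0.23 for Serping1 with both probes averaged, and 0.28 for its probe A_55_P1992889 alone. For C3ar1 the range of 0.25 was smaller than the gap of 0.32 between its C-DE duplicates. The probes closest to its centred profile were those of Sctr (root mean square difference 0.043), Lingo3 (0.054), Myoz1 (0.056), Dbh (0.060) and Trim23 (0.060), against an SD of 0.15 of C3ar1 itself over the arrays.

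For C5ar1, the receptor for C5a, the probe A_55_P2017681 gave 3.7 to 8.3 intensity units and was not well above background on any of the 8 arrays. No fold change is given for it. Its absence among the measured probes says that the signal was too low to be read here, not that the transcript was absent.

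Serping1, which encodes the inhibitor of the C1 proteases, was read by 2 probes that lay in the same order of housing. A_51_P376238 read 0.30 and 0.20 on the C-C arrays, 0.20 and 0.19 on C-DE, 0.40 and 0.42 on EE-C and 0.47 and 0.28 on EE-DE. A_55_P1992889 read 1.29 and 1.28 on the C-C arrays, 1.32 and 1.33 on C-DE, 1.55 and 1.59 on EE-C and 1.60 and 1.43 on EE-DE. With A_55_P1992889 every array of the enriched pools lay above every array of the standard pools, and with A_51_P376238 the second EE-DE array, at 0.28, lay below the first C-C array.

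In EE-C/C-C the probes changed by 0.16 (0.11 to 0.22) and 0.28 (0.26 to 0.31), which is 12.0% and 21.8%. In EE-DE/C-DE they changed by 0.18 (0.08 to 0.28) and 0.19 (0.09 to 0.28). That value of A_51_P376238 was 0.10 with the local correction, and without the first EE-DE array the values were 0.08 and 0.10. The exposure changes were −0.05 (−0.10 to 0.00) and 0.04 (0.03 to 0.06) in standard housing, and −0.03 (−0.14 to 0.07) and −0.06 (−0.16 to 0.05) in enriched housing. Without the first EE-DE array the latter were −0.13 and −0.14, and without the second they were 0.06 and 0.03.

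**Figure D3:**
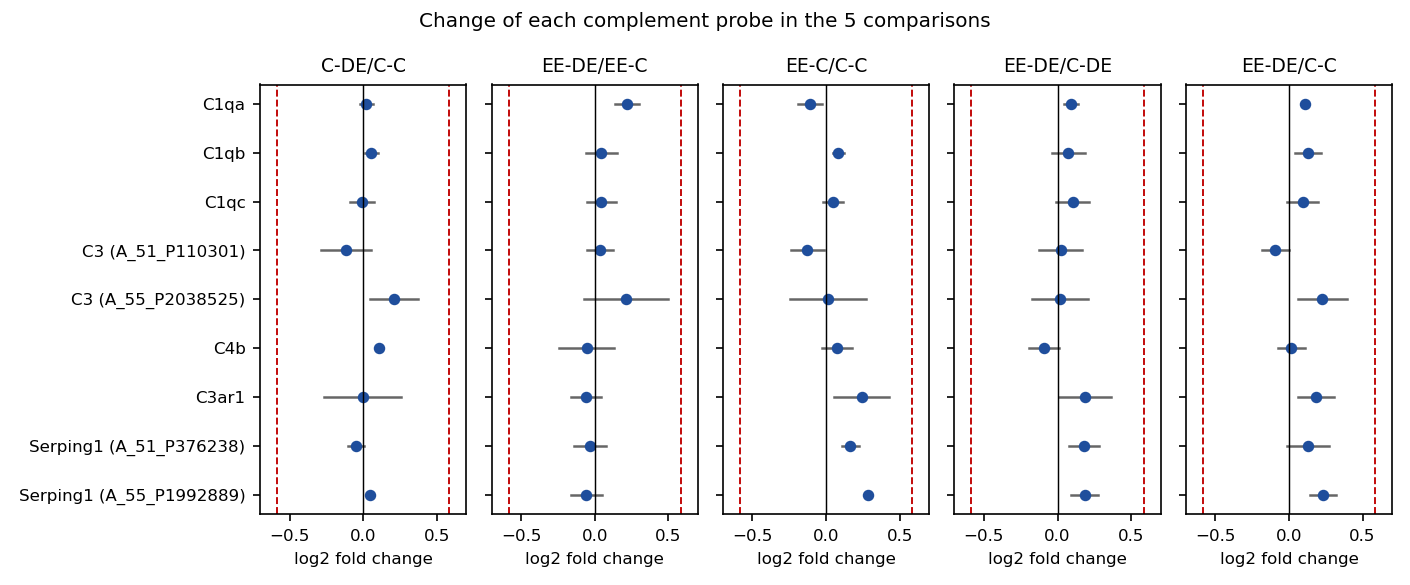
Log2 fold change (horizontal axis) of each of the 9 probes in the 5 comparisons of pools, with the difference of pool means as a point, the range over the 4 pairings of arrays as a line and 1.5-fold as dashed lines. No point or line reaches the dashed lines, and the farthest point is that of Serping1 (A_55_P1992889) in EE-C/C-C at 0.28.

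Probes whose arrays did not overlap between pools were counted as well. For the exposure they were 4 of 9 in standard housing against 40.9% of all probes, and 1 of 9 in enriched housing against 34.2%. For housing in exhaust they were 4 of 9 against 42.2%. In EE-C/C-C they were 6 of 9 against 37.7%, and in EE-DE/C-C 6 of 9 against 47.1%. Of the 6 in EE-C/C-C, C1qb, C3ar1 and both Serping1 probes were higher in the enriched pool, and C1qa and the C3 probe A_51_P110301 were lower. The C1qa change there was −0.11, and it was −0.03 with the local correction. Without the first EE-C array it was −0.04, and without the second −0.18.

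The design allows 1 test over pools, an additive fit of air and housing to the 4 pool means by limma, in which the interaction is the only measure of error (1 residual degree of freedom, 3.63 after moderation). No member probe passed an adjusted p of 0.05 for the diesel exhaust effect or for the housing effect, and of all 21709 probes 0.0% passed for either. At an unadjusted p under 0.05, 1 of 9 member probes passed for the exposure against 7.4% of all probes, and 3 of 9 for housing against 9.68%. The p-values concern these pools and do not measure the variation between mice.

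For the exposure, the member probe under that unadjusted threshold was A_55_P2038525 of C3, at 0.21 ± 0.04 (SE, 95% interval 0.09 to 0.33, limma adjusted p = 0.633). The other C3 probe had −0.04 ± 0.06 (−0.21 to 0.13, limma adjusted p = 0.878). Without the first EE-C array the A_55_P2038525 value was 0.12 ± 0.06 (limma adjusted p = 0.651), no longer under the unadjusted threshold. Among the others, C1qa had 0.12 ± 0.07 (−0.07 to 0.31), C1qb 0.05 ± 0.04 and C1qc 0.02 ± 0.04.

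For housing, Serping1 had 0.24 ± 0.05 with A_55_P1992889 (95% interval 0.09 to 0.38) and 0.17 ± 0.04 with A_51_P376238 (0.05 to 0.29). C3ar1 had 0.21 ± 0.04 (0.09 to 0.34). The limma adjusted p was 0.498 for all 3 of these probes, which is also the lowest over all probes. Without the first EE-DE array, on which fewer spots rose above background, the Serping1 values were 0.19 and 0.12 (limma adjusted p = 0.579 and 0.598), the second above the unadjusted threshold. Without the second C-DE array the C3ar1 value was 0.14 (limma adjusted p = 0.657), above it as well. C1qa, C4b and the C3 probes had housing values between −0.05 and 0.02.

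The intervals of all 9 probes, for both effects, lay inside 1.5-fold. Their bounds ran from −0.21 to 0.33 for the exposure and from −0.22 to 0.38 for housing. Like the p-values, the intervals concern these pools and hold no variation between mice, so they do not exclude larger effects in mice.

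**Figure D4:**
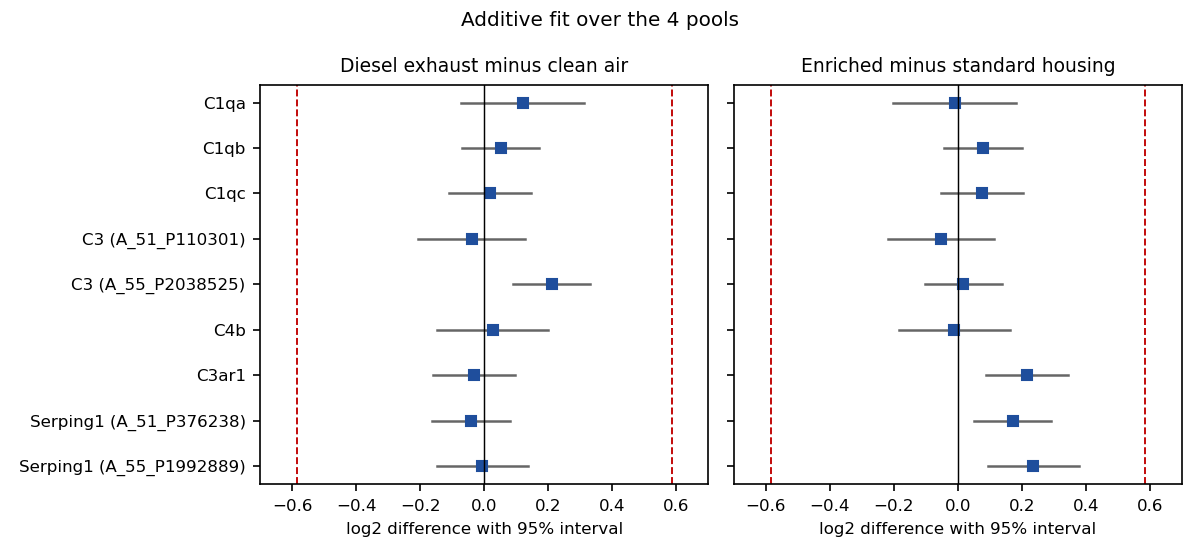
Log2 difference (horizontal axis) for diesel exhaust against clean air and for enriched against standard housing, from the additive fit to 4 pools, with the estimate as a square, its 95% interval as a line and 1.5-fold as dashed lines. Both Serping1 probes and C3ar1 have housing intervals above 0, and the C3 probe A_55_P2038525 has an exposure interval above 0, while no adjusted p was below 0.498.

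Of 52 other genes of the complement system, 48 were on the array and 30 passed with 40 probes. The 18 that did not pass include C6, C7, C8a, C8b and C9 of the terminal complex, of which C8g and Hc (the C5 gene) did pass, as well as Cfd, Cfi, Mbl1, Masp1 and Vsig4. For the exposure in standard and enriched housing and for housing in clean air 0 of the 40 probes passed 1.5-fold. The shares of all probes were 0.576%, 0.944% and 0.825%. For housing in exhaust and for the combined change 1 of the 40 did, that of Cfb in both, against 0.636% and 0.815% of all probes. The median change of the 40 probes was −0.03 and −0.01 for the exposure in standard and enriched housing, 0.03 and 0.05 for housing in clean air and in exhaust, and 0.01 for the combined change. In the additive fit none of the 40 passed an adjusted p of 0.05, and 6 for the exposure and 7 for housing had an unadjusted p under 0.05, against 7.4% and 9.68% of all probes.

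Cfb encodes factor B, a protease of the alternative route. Its dim probe A_51_P413866 read −4.96 and −4.67 on the C-C arrays, −4.87 and −4.67 on C-DE, −4.46 and −4.60 on EE-C and −4.08 and −4.29 on EE-DE, which is 20.9 to 42.4 intensity units. The change was 0.59 (0.38 to 0.79) in EE-DE/C-DE and 0.64 (0.38 to 0.89) in EE-DE/C-C, and the housing effect was 0.44 ± 0.09 (SE, limma adjusted p = 0.498). Without the first EE-DE array the changes were 0.48 and 0.53, and with normexp background correction they were 0.24 and 0.28, all short of 1.5-fold. The value in EE-DE/C-DE lay so close to the threshold that it also fell short with the median of passing probes as the scale (0.582), with the series table (0.581) and with the local correction (0.575). Leaving out the first C-DE array gave 0.49 in EE-DE/C-DE, and leaving out the first C-C array gave 0.49 in EE-DE/C-C.

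Further genes of this list, named because one of their probes was bright, were Clu, Itgam, Vtn, C1qbp, Calr, Cd93, Cfp, Cr1l and C2, and a bright probe does not show a more abundant transcript. Itgam was bright through A_55_P1977934 alone (mean level 5.15), its other probes reading −2.47 and −3.82. Clu and Vtn, which encode the fluid-phase inhibitors clusterin and vitronectin, changed most in C-DE/C-C for Vtn (−0.09) and in EE-DE/EE-C for Clu (−0.09), and C1qbp, a C1q-binding protein, changed at most by −0.04. Itgam, a chain of complement receptor 3, differed by −0.32 (−0.44 to −0.20) for the exposure in standard housing with A_55_P1977934 but by −0.03 with each of its other 2 probes. C2, the protease that acts with C4, changed with exposure by −0.12 in standard and −0.27 in enriched housing, properdin (Cfp) by −0.02 and 0.17, and Calr, Cd93 and Cr1l stayed within 0.18 in all 5 comparisons.

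**Figure D5:**
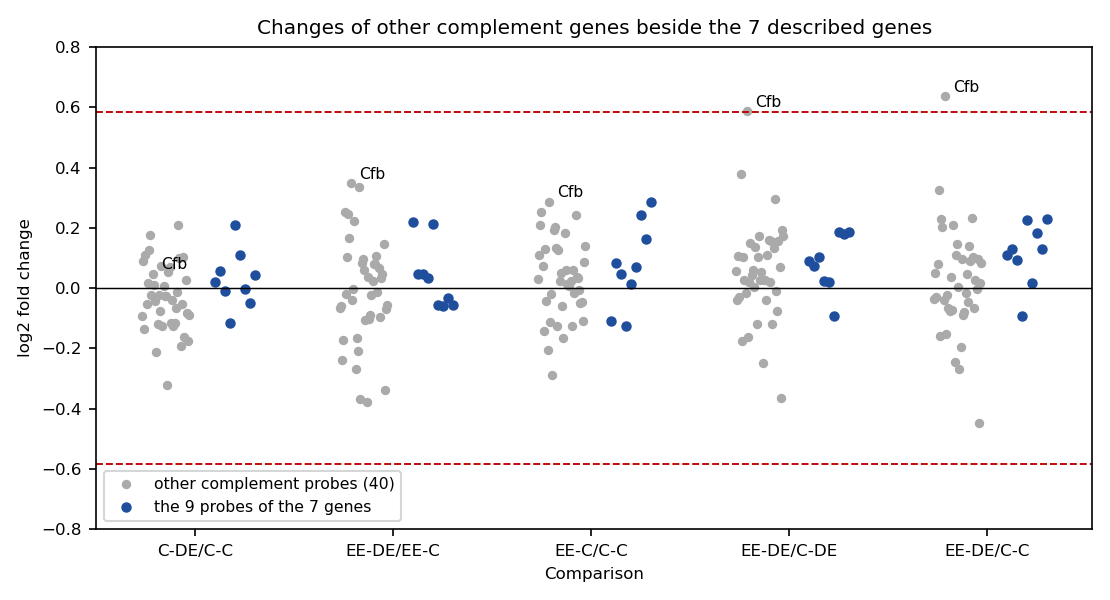
Log2 fold change (vertical axis) of the 40 probes of other complement genes (grey) beside the 9 described probes (blue) in each of the 5 comparisons, with 1.5-fold as dashed lines. Cfb alone passes 1.5-fold, at 0.59 in EE-DE/C-DE and 0.64 in EE-DE/C-C, and the blue points range from −0.13 to 0.28.

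Markers of the bulb and of its cells were present. All 15 microglial genes of a fixed list passed with 20 probes, and their median change was −0.01 and −0.0030 for the exposure in standard and enriched housing, 0.02 for housing in either air and 0.01 for the combined change. Their summed linear level (as a multiple of the 75th percentile) was 209.8 to 212 in C-C, 189.8 to 211 in C-DE, 200.3 to 209 in EE-C and 190.3 to 197 in EE-DE. All 10 astrocyte genes passed, with a median of 0.01 and −0.02 for the exposure in standard and enriched housing and −0.01 and 0.02 for housing in clean air and in diesel exhaust. All 10 genes of bulb neurons passed as well.

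Lists of genes of blood cells and of other tissues were read in the same way. Neutrophil genes (9 of 10 passed, 10 probes, Mmp8 not above background) had medians of −0.61 and −0.33 for the exposure in standard and enriched housing and of 0.29 and 0.74 for housing in clean air and in exhaust, and their summed level was 5.13 to 6.06 in C-C, 3.32 to 3.71 in C-DE, 4.29 to 10.9 in EE-C and 4.47 to 6.79 in EE-DE. Olfactory mucosa genes (10 of 12 passed) had medians of −1.21, 0.71, −0.32 and 1.60 in the same order, with sums of 8.37 to 14.3 in C-C, 4.48 to 5.61 in C-DE, 7.04 to 13.4 in EE-C and 11.7 to 18.9 in EE-DE. Red cell genes (6 of 7) had −0.22, −0.05, 0.06 and 0.22. Genes of the meninges and choroid plexus (12 of 12) had −0.15, −0.04, 0.10 and 0.18, with sums of 31.9 to 38.1 in C-C, 27.2 to 32.9 in C-DE, 28.2 to 31.8 in EE-C and 33.0 to 35.8 in EE-DE. Sensory neuron genes (8 of 9) had −0.20, 0.11, −0.10 and 0.21, and endothelial genes (8 of 8) 0.02, 0.01, −0.0013 and −0.02. Their part in the values of Serping1, C3ar1 and Cfb, which were higher in the enriched pools, was not tested.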

How the data were processed

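Olfactory bulb RNA was labelled with Cy3 and hybridized to Agilent arrays of mouse transcripts, 2 for each of 4 pools. The authors deposited the intensity of each spot as read by Agilent Feature Extraction 10.7.3.1 (version from the submitters' processing notes), with background subtracted and spatial trends removed within each array and no scaling between arrays. A series table holds log2 values that the authors computed, whose scale, centring and direction are not stated. Set against the intensities, they followed the level defined in the report minus each probe's median over the 8 arrays, within 0.02 on all arrays for 99.4% of 21709 probes, with column medians of −0.011 to 0.018.

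Of 35736 spots named by a GenBank or RefSeq accession, 23956 were well above background on all 8 arrays with no outlier flag on any, and spots of a probe were averaged. The duplicate arrays differed with an SD of 0.11 to 0.17 (log2), which is technical variation. With 1 pool in a group, variation between mice was not measured. The additive fit used limma 3.58.1 in R 4.3.3, with Benjamini-Hochberg adjustment over all probes. Tables were made with pandas 2.3.3 and numpy 2.4.6 under Python 3.11.15, intervals with scipy 1.17.1 and plots with matplotlib 3.10.9. The calling and the fit were tested on simulated data.

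The alternatives were the median of passing probes as the scale, quantile normalization, normexp background correction with an offset of 50, the series table, the mean of linear signals, a looser filter and no filter on signal, subtraction of the median deviation in a window of 17 by 17 spots, leaving out each array, 1.5-fold in all 4 pairings, and 1 value per gene.

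The genes, the lists and the tests were chosen with earlier results of these data known. Named are all 8 genes with each of their probes, the other complement genes past 1.5-fold in a comparison, up to 10 of them with the highest signal (1 of which is not reported here), and the 5 probes closest in profile to the C1q mean and to the gene with the widest range of pool means. Other members of that list are named by their role and Itgam by the disagreement of its probes, chosen after the values were seen.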

Additional observations from a re-analysis of the deposited data

How the results depend on the processing

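No member probe passed 1.5-fold under any alternative that kept the filter on signal, in any of the 5 comparisons. With no filter on signal, 1 probe passed in C-DE/C-C, that of C5ar1, whose signal was not well above background on any array, and 0 passed in the other comparisons. Leaving out each array in turn gave 0 to 0 member probes in every comparison and for both effects of the additive fit. Under all 16 alternatives the limma fit called 0 member probes for the exposure and 0 for housing at an adjusted p of 0.05, while 0 to 2 and 1 to 4 had an unadjusted p under 0.05.

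Of 180 changes of single probes recomputed under 4 alternatives other than normexp and leaving out an array, 176 moved by less than the SD between duplicates and 36 of 45 did under normexp. With an array left out this comparison is not informative, since dropping 1 of a pair of duplicates cannot move a change by more than that SD. The sign differed from the reported one in 4 of those 180, in 5 of 45 under normexp and in 22 of 360 with an array left out, of which 180 concern an array of the comparison. The cause was not tested. No paired analysis was possible because the numbers of the arrays mark technical duplicates of 1 pool, which were averaged. The signal of C5ar1 was too low to be read.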
